A study of Homo sapiens with 8 samples.

Results

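The genes described are those of the replication factor C (RFC) clamp loaders and of replication protein A (RPA) in human PANC-1 cells given a BARD1 siRNA. They were chosen by name as protein-coding genes of the count and FPKM tables, by a rule that uses no measured value but was set with earlier results of these data known, and all 10 were found among the 58735 genes listed: RFC1, RFC2, RFC3, RFC4, RFC5, DSCC1, ATAD5, RPA1, RPA2 and RPA3. PANC-1 is a line derived from a human pancreatic ductal tumour. The labels give 4 libraries of cells of genotype WT that received a scrambled siRNA (siSCR) and 4 labelled BARD1 knockdown that received a BARD1 siRNA (siBARD1), all harvested at 48 h, with replicates numbered 1, 3, 4 and 5 in each group. BARD1, the target, is the partner of BRCA1 in homologous recombination repair. The labels do not say whether replicates were separate cultures, and they name no siRNA sequence. Every p-value therefore rests on the spread among these libraries alone, which may be technical. The knockdown is transient and was made in 1 cell line.

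A clamp loader opens the ring-shaped sliding clamp and closes it around DNA at a primer end. The clamp for replication is PCNA, which holds the DNA polymerases and many repair proteins at the fork. RFC2, RFC3, RFC4 and RFC5 are small subunits shared by several loaders, and the partner sets the task: RFC1 loads PCNA, CHTF18 with DSCC1 and CHTF8 forms a loader tied to leading-strand synthesis and sister chromatid cohesion, ATAD5 takes PCNA off DNA, and RAD17 loads the 9-1-1 checkpoint clamp. RPA is a trimer of RPA1, RPA2 and RPA3 that coats single-stranded DNA at forks and at resected breaks and recruits checkpoint kinases and recombination proteins.

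Libraries held 17816547 to 28590710 counts. BARD1 (ENSG00000138376) had 415, 382, 381 and 424 counts in siSCR and 67, 75, 97 and 55 in siBARD1, so 15.4% of its level remained (log2 fold change -2.69, SE 0.12, edgeR quasi-likelihood adjusted p = 7.41e-11). The second principal component, 15.5% of the variance, set siSCR replicate 1 apart from the other 7 libraries. The ductal epithelial markers were KRT7, KRT8, KRT18, KRT19 and EPCAM. Their summed FPKM was 1153 to 1592 in siSCR and 675 to 950.3 in siBARD1. KRT8, KRT18 and KRT19 made up nearly all of this sum. KRT7 stayed under 1 FPKM in every library. EPCAM ranged from 5.91 to 7.95 FPKM in siSCR and from 6.41 to 8.35 FPKM in siBARD1. Of these 5 genes 3 were called lower, and the part of the lower sum in the results was not tested. Markers of other cell types were low: no immune, endothelial, acinar or endocrine marker reached 1 FPKM in any library, and of the fibroblast markers DCN and LUM were at 0. COL1A1 ranged from 8.31 to 12.6 FPKM in siSCR and from 7.83 to 8.65 FPKM in siBARD1, and COL3A1 from 0.307 to 0.513 FPKM in siSCR and from 0.498 to 0.937 FPKM in siBARD1; COL1A1 was called lower and COL3A1 higher.

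All 4 small subunits of the clamp loaders fell, with the 4 largest fold changes of the set. RFC2, RFC3, RFC4 and RFC5 were 1.30 to 1.51-fold lower in siBARD1, DSCC1 was 1.22-fold lower, and RPA2 and RFC1 were 1.14 and 1.10-fold lower. ATAD5, RPA1 and RPA3 did not pass the test. All 10 passed the filter on low counts. With edgeR's quasi-likelihood test, adjusted over the 15287 genes that passed it, 7 of the 10 were lower, 0 were higher and 3 did not pass the threshold of 0.05. At an unadjusted p under 0.05 the number was also 7, and 7 lower and 0 higher was also the outcome of DESeq2, of limma with voom and of limma run on FPKM. The number lower was 6, without RFC1, with upper-quartile scaling, total counts only or no filter, and in 6 of the 8 fits that left out 1 library. Of all genes tested, 38.9% were called, 20.0% lower and 18.9% higher (3057 and 2889 genes, or 2478 and 3616 with scaling by total counts only). The siBARD1 libraries lay wholly below the siSCR libraries for 7 of the 10, compared with 18.4% of all genes tested, and 36.1% of all genes had groups without overlap in either direction. A mean level within the range of these 10, 15.5 to 220.8 CPM (counts scaled to TMM-adjusted library size), was found for 7785 genes. Of these 7785 genes, 27.4% were called lower and 23.7% higher. The median log2 fold change was -0.23 over the 10 genes, -0.42 over RFC2 to RFC5 and 0.00 over all genes tested. In RNA from whole cultures, fewer cells expressing a gene (such as cells in S phase) and less RNA per cell cannot be told apart.

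**Figure D1:**
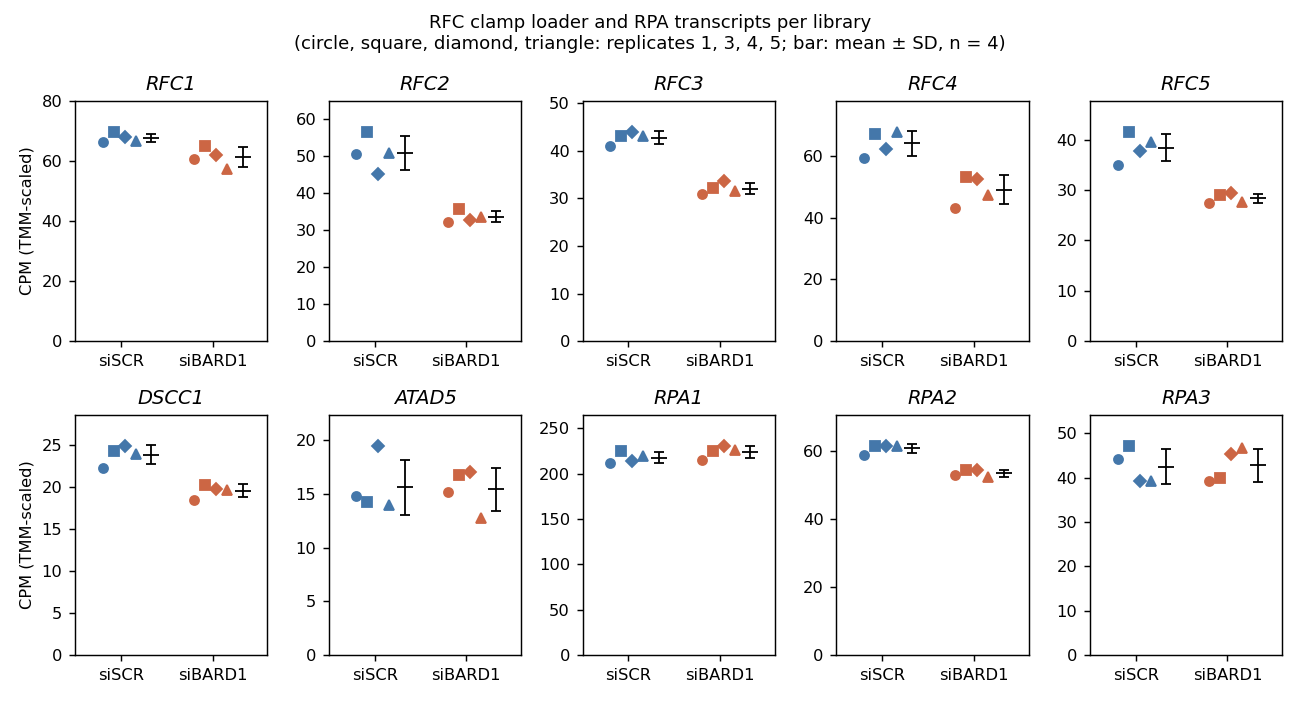
TMM-scaled CPM (vertical axis, from 0) of each gene in every library, with siSCR in blue and siBARD1 in orange; marker shapes are replicates and black bars are mean ± SD (n = 4). For RFC1 to RFC5, DSCC1 and RPA2 all siBARD1 points lie below all siSCR points, and for ATAD5, RPA1 and RPA3 they overlap.

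**Figure D2:**
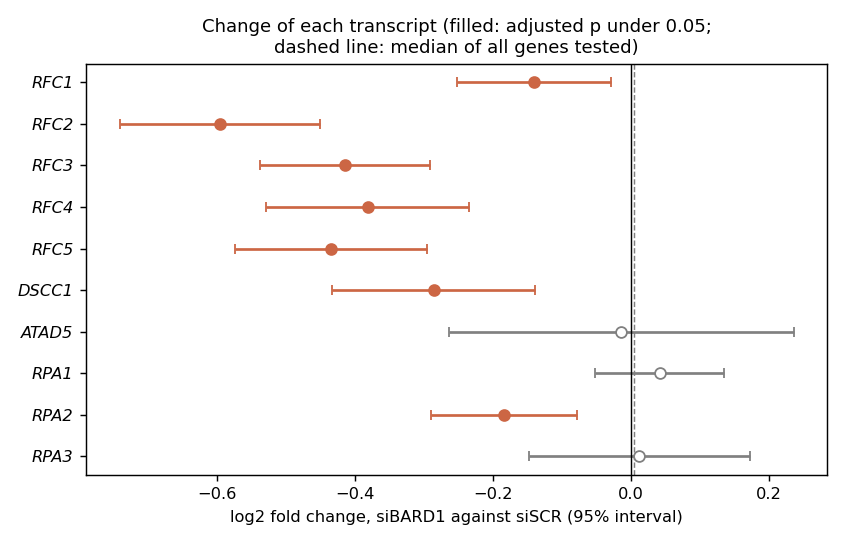
Log2 fold change of each gene, siBARD1 against siSCR, with its 95% interval from the edgeR fit; filled points passed an adjusted p of 0.05 and the dashed line is the median of all genes tested. RFC2 lies farthest from 0 at -0.60, and the intervals of ATAD5, RPA1 and RPA3 include 0.

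The start regions of RFC2 and RFC1 are shown because these genes share a complex but differ in the size of their change. RFC2 had the largest fall of the 10, and RFC1 the smallest of the 7 that passed. RFC3, of the same complex, is also shown. Its change lay between theirs, as did those of RFC4 and RFC5. It alone of the genes with matched sequence held an E2F form, defined below. The windows run from 250 bases before to 50 bases after the RefSeq start (GRCh38.p14), read on the gene's strand, with 3 kinds of promoter box in capitals. The boxes, searched on both strands, were the E2F forms TTTGGCGC, TTTCGCGC, TTTCCCGC and TTTGCCGC, the GC box GGGCGG and the CCAAT box CCAAT. The lines give RFC2 at chr7:74254350-74254649 (minus strand), RFC3 at chr13:33817899-33818198 (plus strand) and RFC1 at chr4:39366313-39366612 (minus strand).
RFC2: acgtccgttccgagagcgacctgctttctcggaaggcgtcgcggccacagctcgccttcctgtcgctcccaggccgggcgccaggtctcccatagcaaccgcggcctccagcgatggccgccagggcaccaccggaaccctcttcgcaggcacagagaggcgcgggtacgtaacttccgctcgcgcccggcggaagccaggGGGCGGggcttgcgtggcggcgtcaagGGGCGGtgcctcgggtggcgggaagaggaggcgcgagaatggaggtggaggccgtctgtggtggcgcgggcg
RFC3: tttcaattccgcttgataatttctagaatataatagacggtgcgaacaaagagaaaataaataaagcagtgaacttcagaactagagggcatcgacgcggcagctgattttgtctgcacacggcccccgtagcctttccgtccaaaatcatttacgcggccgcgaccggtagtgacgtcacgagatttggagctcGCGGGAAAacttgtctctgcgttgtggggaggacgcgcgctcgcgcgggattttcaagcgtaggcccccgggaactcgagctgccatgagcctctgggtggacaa
RFC1: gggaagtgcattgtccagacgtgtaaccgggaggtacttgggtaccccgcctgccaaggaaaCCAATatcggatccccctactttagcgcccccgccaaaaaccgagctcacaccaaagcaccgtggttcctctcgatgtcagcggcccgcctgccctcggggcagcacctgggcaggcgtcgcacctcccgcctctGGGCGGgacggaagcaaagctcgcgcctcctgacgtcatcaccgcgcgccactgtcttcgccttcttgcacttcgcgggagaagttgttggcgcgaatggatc
RFC2 holds 2 GC boxes and no CCAAT box, RFC1 holds 1 of each, and RFC3 holds 1 E2F form, written on its strand as GCGGGAAA from base -55. Sequence was matched for 6 of the 10 genes (RFC1 to RFC5 and RPA1), and RFC3 was the only one of these 6 with an E2F form, against 3.31% of the 35116 windows in the table. A GC box was present in RFC1, RFC2, RFC4, RFC5 and RPA1 (45.0% of all windows), and a CCAAT box in RFC1, RFC5 and RPA1 (34.6%). With exact matches only, none of the 3 kinds of box was present in all of RFC2, RFC3, RFC4 and RFC5. Forms that differ by a base were not searched, so a gene without a match may still hold a similar site. Any link between the boxes and the changes was not tested.

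RFC2 (ENSG00000049541; chromosome 7, 74231499 to 74254458, minus strand, GRCh38), a small subunit of the AAA+ family, had the largest fall. Its level was 50.6, 56.5, 45.2 and 51.0 CPM in siSCR replicates 1, 3, 4 and 5 and 32.3, 35.6, 32.8 and 33.6 CPM in the same order in siBARD1. The lowest siSCR library, replicate 4, lay well above the highest siBARD1 library, replicate 3. The mean went from 50.8 ± 4.62 to 33.6 ± 1.46 CPM (SD, n = 4 each), a 1.51-fold fall (log2 fold change -0.60, SE 0.07, edgeR adjusted p = 3.84e-06).

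RFC5 (ENSG00000111445; chromosome 12, 118013588 to 118033130, plus strand), a small subunit, stood at 35.0, 41.5, 37.7 and 39.4 CPM across the controls and 27.5, 28.9, 29.3 and 27.7 CPM in siBARD1. The siBARD1 libraries were tightly grouped and all below siSCR replicate 1, the lowest control. The fall was 1.35-fold (log2 fold change -0.43, SE 0.07, edgeR adjusted p = 6.30e-05). RFC5 shares 10.6% of its exonic bases with genes on the opposite strand, among them WSB2. The labels leave the libraries' strandedness open, so its level is less certain than that of RFC2 or RFC3, which share none. With smaller shares, the same limit applies to ATAD5 (4.31%), RPA3 (3.65%), RPA1 (2.84%) and RFC4 (0.70%). RFC1, DSCC1 and RPA2 share none.

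RFC3 (ENSG00000133119; chromosome 13, 33818049 to 33966558, plus strand), a small subunit, stood at 41.0, 43.1, 43.9 and 43.1 CPM across the controls and 30.9, 32.2, 33.7 and 31.4 CPM in siBARD1. Both groups were narrow, with a gap between them larger than the range of either. The fall was 1.33-fold (log2 fold change -0.41, SE 0.06, edgeR adjusted p = 3.07e-05).

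RFC4 (ENSG00000163918; chromosome 3, 186789880 to 186807058, minus strand), a small subunit, stood at 59.3, 67.0, 62.2 and 67.7 CPM across the controls and 43.1, 53.2, 52.5 and 47.5 CPM in siBARD1. Replicate 1 was the lowest library in both groups, and the groups did not overlap. The fall was 1.30-fold (log2 fold change -0.38, SE 0.07, edgeR adjusted p = 3.66e-04).

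RFC1 (ENSG00000035928; chromosome 4, 39287456 to 39366375, minus strand), the large subunit of the loader that serves replication, changed less. It stood at 66.3, 69.6, 67.9 and 66.7 CPM across the controls and 60.8, 65.1, 62.1 and 57.3 CPM in siBARD1. The groups did not overlap, but siBARD1 replicate 3 came close to the lowest control. The log2 fold change was -0.14 (SE 0.05, edgeR adjusted p = 0.045), and its 95% interval, -0.25 to -0.03, lay entirely above those of RFC2 (-0.74 to -0.45), RFC3 (-0.54 to -0.29) and RFC5 (-0.57 to -0.30) and overlapped that of RFC4 (-0.53 to -0.23). The call was lost without siSCR replicate 3 (adjusted p = 0.0938), 4 (0.0884) or 5 (0.0630) and without siBARD1 replicate 1 (0.0832), 4 (0.0814) or 5 (0.139). It was also lost with upper-quartile scaling (0.130), with scaling by total counts (0.169) and with no filter on low counts (0.156).

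DSCC1 (ENSG00000136982; chromosome 8, 119833976 to 119856010, minus strand) encodes a subunit of the CHTF18 loader that acts in sister chromatid cohesion. It stood at 22.3, 24.3, 24.9 and 24.0 CPM across the controls and 18.4, 20.3, 19.7 and 19.7 CPM in siBARD1. Replicate 1 was lowest in each group and no siBARD1 library reached the lowest control. The fall was 1.22-fold (log2 fold change -0.29, SE 0.07, edgeR adjusted p = 0.00371).

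ATAD5 (ENSG00000176208; chromosome 17, 30831970 to 30895869, plus strand), the PCNA unloader, did not pass the test. It stood at 14.8, 14.2, 19.5 and 13.9 CPM across the controls and 15.2, 16.8, 17.1 and 12.7 CPM in siBARD1. The groups overlapped, with siSCR replicate 4 the highest library of all and siBARD1 replicate 5 the lowest. The log2 fold change was -0.01 (SE 0.12, edgeR adjusted p = 0.940), and the 95% interval, -0.26 to 0.24, includes a fall as large as that of RFC1.

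Of the RPA trimer, RPA2 alone was called. RPA2 (ENSG00000117748; chromosome 1, 27891524 to 27914746, minus strand), the subunit that checkpoint kinases phosphorylate, stood at 58.9, 61.6, 61.5 and 61.5 CPM across the controls and 53.0, 54.4, 54.5 and 52.3 CPM in siBARD1. The groups did not overlap, and replicate 1 was the lowest control. The fall was 1.14-fold (log2 fold change -0.18, SE 0.05, edgeR adjusted p = 0.00757).

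RPA1 (ENSG00000132383; chromosome 17, 1829702 to 1900082, plus strand), the large subunit that carries the main DNA-binding domains, stood at 212.4, 225.4, 213.7 and 219.3 CPM across the controls and 214.6, 224.7, 230.7 and 225.8 CPM in siBARD1. The groups overlapped. Its log2 fold change was 0.04 (SE 0.04, edgeR adjusted p = 0.491; 95% interval -0.05 to 0.14), so a fall of the size seen in RFC3, RFC4 or RFC5 lay outside the interval.

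RPA3 (ENSG00000106399; chromosome 7, 7636518 to 7718607, minus strand), the smallest subunit, stood at 44.3, 47.1, 39.3 and 39.2 CPM across the controls and 39.2, 39.9, 45.3 and 46.7 CPM in siBARD1. In siSCR replicates 1 and 3 were high, in siBARD1 replicates 4 and 5 were, and the groups covered almost the same range. The log2 fold change was 0.01 (SE 0.08, edgeR adjusted p = 0.917; 95% interval -0.15 to 0.17). Under other settings its sign, like that of ATAD5, took either direction without a call.

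A 7-base sequence, CTACCAG, came from an earlier search of these same data, so its presence is given as a description. It was absent from every annotated coding transcript of 9 of the 10 genes in GENCODE 29, including RFC2, RFC3, RFC4 and RFC5. RPA2 carried it in 1 of 5 coding transcripts, once, in the 3′ UTR, at bases 1403 to 1409 of a transcript of 1752 bases. The site is shown with 11 bases on each side and the sequence in capitals.
RPA2: ttggaaggatgCTACCAGgagagtactta
Of the 12722 protein-coding genes searched, 24.3% carried a copy in the transcript with the longest 3′ UTR, and their median log2 fold change was -0.08, compared with 0.02 for genes without a copy. The 8.10% with a copy in the 3′ UTR, where that of RPA2 lies, had a median of -0.12. As the sequence was found in these same data, these medians are also a description and no test of it. Genes with and without a copy were not matched for transcript length.

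Levels between genes were compared in FPKM, which corrects for gene length. That length covers all annotated exons (6719 bases for RFC1, beside 4886 in its coding transcript with the longest 3′ UTR). The order of genes and their shares of a sum therefore depend on the annotation. In siSCR the order of mean FPKM was RPA1 (39.4 ± 1.10), RPA2 (30.0 ± 0.63), RFC2 (22.9 ± 2.11), RFC4 (21.3 ± 1.31), RFC3 (14.8 ± 0.42), RPA3 (13.1 ± 1.23), RFC5 (11.8 ± 0.84), RFC1 (10.02 ± 0.23), DSCC1 (9.12 ± 0.42) and ATAD5 (2.19 ± 0.36; SD, n = 4 each). The libraries of neighbours in this order overlapped for RFC2 with RFC4, RFC3 with RPA3 and RPA3 with RFC5, and were separate for the other 6 pairs of neighbours. In siSCR the mean FPKM of each of the 4 shared small subunits stood above those of RFC1, DSCC1 and ATAD5, and in siBARD1 RFC5 stood below RFC1. In siBARD1 the mean FPKM of RFC4 (16.2 ± 1.59) stood above that of RFC2 (15.1 ± 0.66), with overlapping libraries. RPA3 (13.1 ± 1.16 FPKM) stood above RFC3 (11.1 ± 0.46 FPKM) with no overlap. RFC1 (9.06 ± 0.49 FPKM) and RFC5 (8.66 ± 0.30 FPKM), which were separate in siSCR, overlapped.

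The balance between subunits was then measured within each library as the log2 ratio of 2 FPKM values, which does not depend on how libraries are scaled. The ratio of RFC1 to each of RFC2 to RFC5 was higher in every siBARD1 library than in every siSCR library, and 0 of 16 ratios passed adjustment (5 had an unadjusted exact permutation p under 0.05). The ratio of RFC1 to RFC2 was -1.21, -1.30, -1.02 and -1.21 in siSCR and -0.69, -0.73, -0.68 and -0.84 in siBARD1. The mean difference was 0.45 (SE 0.07), with no overlap. For RFC1 to RFC5 the log2 ratio was -0.13, -0.30, -0.20 and -0.29 in siSCR and 0.10, 0.12, 0.03 and 0.00 in siBARD1, a difference of 0.29 (SE 0.05). The differences for RFC1 to RFC3 and RFC1 to RFC4 were 0.27 (SE 0.04) and 0.25 (SE 0.07), again without overlap. Each of these 4 gave an exact two-sided permutation p of 0.0286, the smallest that 70 assignments allow, and an adjusted p of 0.0914 over 16 pairs. At least 10 pairs at the smallest p would have been needed to pass the adjustment. Without siSCR replicate 1 the differences of RFC1 to RFC2, RFC3, RFC4 and RFC5 were 0.44, 0.29, 0.27 and 0.33. Without siBARD1 replicate 1 the difference of RFC1 to RFC4 was 0.19 and that of RFC2 to RFC4 was -0.25.

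Ratios among the small subunits were measured in the same way. RFC3 to RFC5 differed by 0.02 (SE 0.04; exact permutation p = 0.714), RFC3 to RFC4 by -0.03 (SE 0.06; exact permutation p = 0.657) and RFC4 to RFC5 by 0.05 (SE 0.05; exact permutation p = 0.400) on the log2 scale. The log2 ratios of RFC2 to RFC3, RFC4 and RFC5 differed by -0.18, -0.21 and -0.16, with overlapping libraries (exact permutation p = 0.0571 to 0.114). As a share of the summed FPKM of RFC1 to RFC5, RFC1 held 12.7%, 12.0%, 12.9% and 12.0% in siSCR and 15.8%, 15.2%, 14.8% and 14.4% in siBARD1. RFC2 held 28.3% ± 1.66 in siSCR and 25.1% ± 0.88 in siBARD1 (SD, n = 4 each).

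For the partners of the small subunits, the log2 ratio of RFC1 to DSCC1 differed by 0.15 (SE 0.05; exact permutation p = 0.0571, adjusted p = 0.131) and that of DSCC1 to ATAD5 by -0.28 (SE 0.14; exact permutation p = 0.0857, adjusted p = 0.152). In the RPA trimer, the log2 ratio of RPA1 to RPA2 was 0.41, 0.43, 0.35 and 0.39 in siSCR and 0.58, 0.60, 0.64 and 0.67 in siBARD1. The groups were far apart relative to their spread, with a difference of 0.23 (SE 0.03; exact permutation p = 0.0286, adjusted p = 0.0914). RPA2 to RPA3 differed by -0.20 (SE 0.10; exact permutation p = 0.171), with siSCR replicates 4 and 5 highest.

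**Figure D3:**
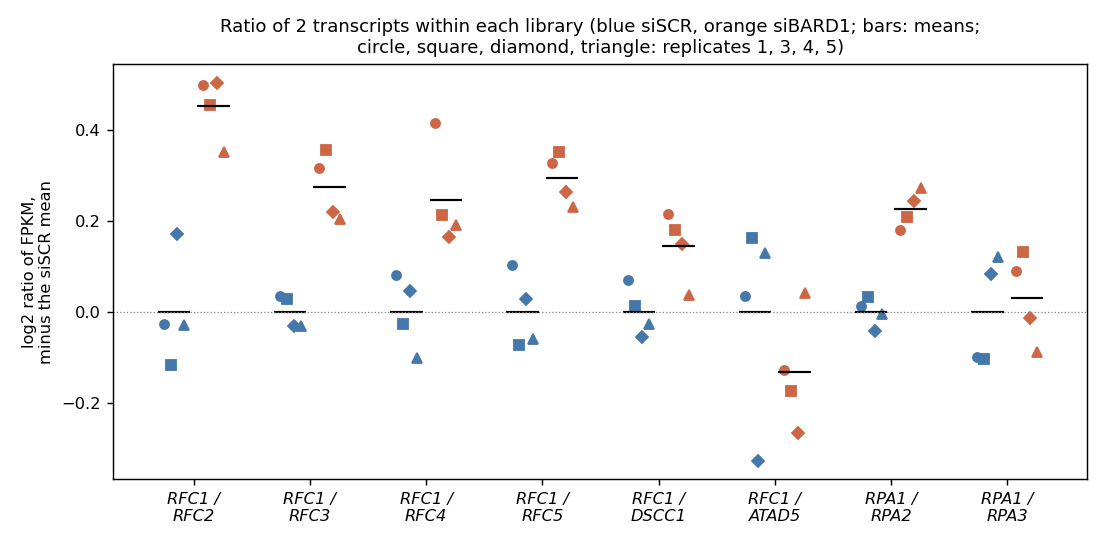
Log2 ratio of the FPKM of 2 genes in each library, minus its siSCR mean (vertical axis), for 8 of the 16 pairs; blue is siSCR, orange siBARD1, and bars are group means. The siBARD1 points lie above all siSCR points for RFC1 against RFC2 to RFC5 and for RPA1 against RPA2, and overlap for the other 3 pairs.

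Other genes of the replication fork were counted in 7 lists, of which 58 genes passed the filter on low counts; 27 fell and 5 rose in edgeR, beside 20.0% and 18.9% of all genes, with a median log2 fold change of -0.17. Of the 6 genes of other loaders and the 9-1-1 clamp, 0 fell and 1 rose in edgeR (3 genes had an unadjusted p under 0.05, and DESeq2 called 1 lower). CHTF18 stood at 72.5 ± 13.0 CPM across the controls and 57.3 ± 5.18 CPM in siBARD1 (log2 fold change -0.34, SE 0.13, edgeR adjusted p = 0.0654), and RAD17 had a log2 fold change of -0.07 (SE 0.05). HUS1, a subunit of the 9-1-1 clamp, rose from 42.4 ± 1.65 to 50.3 ± 1.07 CPM (log2 fold change 0.25, SE 0.05, edgeR adjusted p = 0.00175). The number of lower calls in this list was 2 without siSCR replicate 1 or without siBARD1 replicate 3, and 1 with no filter on low counts.

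Of 9 genes for PCNA and its unloading or modification, 4 fell, 1 rose and 4 did not pass. The number that rose was 3 with upper-quartile scaling and with total counts only, and 2 without siSCR replicate 1 or siBARD1 replicate 5. It was also 2 with a filter of at least 1 CPM in 4 libraries and with protein-coding genes only. PCNA, the clamp itself, had 144.6 ± 7.20 CPM in the controls and 111.1 ± 7.73 CPM after knockdown (log2 fold change -0.38, SE 0.06, edgeR adjusted p = 5.14e-05). RAD18, the ubiquitin ligase that modifies PCNA at stalled forks, had -0.61 (SE 0.08). WDR48, the cofactor of the USP1 deubiquitinase that acts on PCNA, rose (log2 fold change 0.37, SE 0.07, edgeR adjusted p = 3.92e-04), whereas USP1 stood at 138.4 ± 3.96 and 141.3 ± 9.51 CPM without passing.

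All 6 MCM2-7 helicase genes fell, with a median log2 fold change of -0.50, the steepest being MCM6 (-0.77, SE 0.06). Of 12 replicative polymerase and primase genes 7 fell and 0 rose in edgeR (7 at an unadjusted p under 0.05), with a median of -0.33, and the steepest was PRIM2, the regulatory primase subunit (-0.52, SE 0.06, edgeR adjusted p = 5.08e-06). Of 5 genes of Okazaki fragment processing tested, 3 fell and 0 rose in edgeR (3 at an unadjusted p under 0.05). The steepest of these was RNASEH2C, a subunit of RNase H2 (-0.56, SE 0.09), which shares 28.2% of its exonic bases with a gene on the opposite strand. RNASEH2A did not pass the filter on low counts.

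Of 13 RPA interactors 4 fell, 1 rose and 8 did not pass, with a median log2 fold change of -0.12; the share called is near the 38.9% called among all genes. The number that rose was 2 with upper-quartile scaling and with total counts only. The fork protection factor TIMELESS had the largest fall (-1.47, SE 0.08, edgeR adjusted p = 4.66e-09) and ETAA1, an RPA-bound activator of the kinase ATR, rose (0.38, SE 0.07, edgeR adjusted p = 4.26e-04). Of 7 tested genes of other single-stranded DNA binding complexes 3 fell, 2 rose and 2 did not pass; the mitochondrial SSBP1 had -0.45 (SE 0.05) and CTC1, of the CST complex at telomeres, had 0.25 (SE 0.06). TEN1 of the same complex did not pass the filter on low counts.

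**Figure D4:**
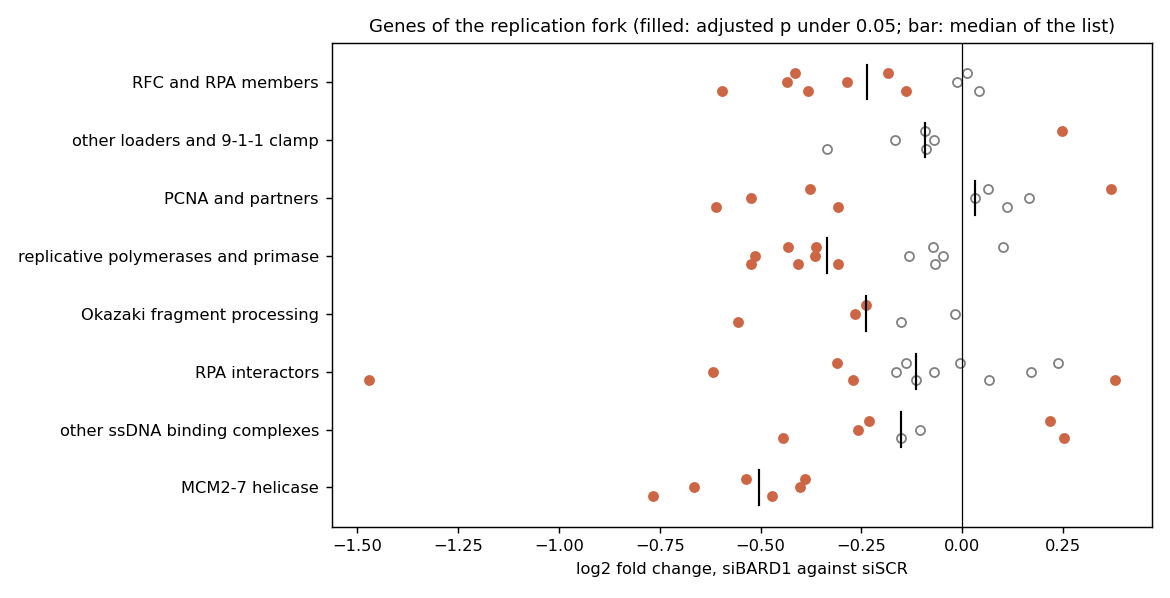
Log2 fold change (horizontal axis, siBARD1 against siSCR) of each tested gene of the 10 RFC and RPA genes and of the 7 lists; filled points passed an adjusted p of 0.05 in edgeR and black bars are medians. The medians run from -0.50 for the MCM2-7 helicase to 0.03 for PCNA and its partners, and the point at -1.47 is TIMELESS.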

How the data were processed

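Per the labels' protocols, column-purified total RNA was enriched for poly-A transcripts, and the libraries are described as directional or non-directional without saying which. The authors deposited whole-number counts per gene and FPKM values per gene for each of the 8 libraries. Per the submitters' processing notes, fastp, HISAT2 (2.0.5) and featureCounts were used, with builds named GRCh37 and hg19. The coordinates in the deposited tables match GENCODE 29 on GRCh38 for all 58735 genes, and the build used for alignment is not settled. Deposited FPKM values equalled counts per length and total times 1 constant per library.

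The counts were tested with edgeR (4.0.16, R 4.3.3): filterByExpr, TMM scaling, a robust quasi-likelihood fit without covariates and Benjamini-Hochberg adjustment over 15287 genes. Standard errors come from each log2 fold change and its F statistic. Pair ratios used exact two-sided permutation over 70 assignments. The edgeR step was tested on simulated data. Alternatives were other scalings and filters, DESeq2 (1.42.0), limma (3.58.1) with voom and on log2(FPKM + 1) and log2(FPKM + 0.1), a replicate block and leaving out each library.

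The genes and lists were chosen with earlier results of these data known. Named genes were BARD1, the 10 genes, in each list the gene with the largest change in each direction among those called (the smallest p where none was), and the 3 genes of at least 5 CPM most correlated with the member of smallest p; PCNA, USP1, CHTF18 and RAD17 were named after their values were seen. RADX was matched through its older symbol. Promoter windows are from RefSeq; transcripts are from GENCODE 29. Intervals from the fit are at 95%.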

Additional observations from a re-analysis of the deposited data

Results flagged for a closer look

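Each group of 4 libraries was examined for a single library far from the other 3, for the 10 genes and BARD1, 22 groups in all; chance marks about 1 group in 20. The ATAD5 level of siSCR replicate 4, 19.5 CPM, stood far above the other 3 control libraries. Without this library the log2 fold change of ATAD5 was 0.11 (edgeR adjusted p = 0.462), still without a call. The RPA2 level of siSCR replicate 1, 58.9 CPM, stood below the other 3 controls, which lay within 61.5 and 61.6 CPM. Without it the log2 fold change of RPA2 was -0.20 (edgeR adjusted p = 0.00526).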

How the results depend on the processing

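RFC2, RFC3, RFC4, RFC5, DSCC1 and RPA2 kept their direction and call in all 20 settings run, and the number of the 10 genes called lower was 6 or 7 in each. RFC1 was called in 11 of the 20. Its log2 fold change was -0.10 with upper-quartile scaling, -0.093 with total counts only and -0.13 with no filter, none of them past the threshold. It was -0.16 to -0.11 when single libraries were left out. The median log2 fold change of all genes tested was 0.00 in the main fit, 0.04 with upper-quartile scaling and 0.05 with total counts. The cause of the lost RFC1 calls was not tested. ATAD5, RPA1 and RPA3 passed in none of the 20 settings. The number of genes in the 7 fork lists that rose was 8, in place of 5, with upper-quartile scaling and with total counts only. Over all genes 3057 were lower and 2889 higher, and with total counts only 2478 were lower and 3616 higher. Same-numbered libraries of the groups did not deviate together throughout (correlations 0.139, 0.129, 0.0335 and -0.0323 for replicates 1, 3, 4 and 5), so the numbers were not taken as pairs, and 2 of the 4 siSCR libraries correlated best with their own number. With the replicate block 7 of the 10 genes were lower and 0 higher, and RFC1 had a log2 fold change of -0.14 (edgeR adjusted p = 0.0268). Over all genes the block gave 3379 lower and 3225 higher, more than the 3057 and 2889 of the main fit. In a sign-flip test of same-numbered ratios the smallest p is 0.125, so that test cannot pass. With 3 against 4 libraries the smallest permutation p of a ratio is 0.0571, so leaving out a library was read from the differences alone.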

Other observations

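The genes whose log2 CPM followed RFC2 most closely over the 8 libraries, among 10425 protein-coding genes of at least 5 CPM, were MRPS12, a mitochondrial ribosomal protein (Pearson r = 0.994), U2AF2, a splicing factor that recognises the polypyrimidine tract (0.994), and COA4, a cytochrome c oxidase assembly factor (0.993). These values share libraries and the group difference and are a description. With the group means removed r was 0.951, 0.920 and 0.919. MRPS12 had a log2 fold change of -0.57 (SE 0.05), COA4 of -0.46 (SE 0.06) and U2AF2 of -0.22 (SE 0.04). About 16.3% of the exonic bases of MRPS12 overlap a gene on the opposite strand.

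Processed pseudogenes named after these genes (RFC3P1, RFC5P1, RPA2P1, RPA2P2 and RPA2P3) had 0 counts in every library. RPA4, an intronless relative of RPA2, had at most 7 counts in any library.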
